A study of Mus musculus with 24 samples.

Results

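The class I and class II histone deacetylases of the mouse are 10 genes, Hdac1 to Hdac10, and were taken here as the rows whose gene symbol was one of these names. Each table of mouse embryonic fibroblasts (MEFs) listed 43626 genes and held all 10, the table of podocytes given Adriamycin held 8, and that of podocytes given vehicle held 1. The study compared wild-type with Mof-knockout MEFs (passage 2), and MPC5 podocytes (a mouse glomerular podocyte line, differentiated, passage 20) carrying a scramble control with those carrying a Mof knockdown. Each pair was given vehicle (DMSO) or Adriamycin for 24 h, at 0.1 µg/ml in MEFs and 0.25 µg/ml in podocytes, which made 8 groups of 3 samples. Adriamycin (doxorubicin) is an anthracycline that traps topoisomerase II on DNA. How the knockout and the knockdown were made is not stated in the labels. Nor do the labels say that the 3 samples per group came from separate cultures, so p-values measure only sample-to-sample spread, which could be technical.

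MOF, encoded by Kat8, adds acetyl groups to histone H4, and the deacetylases remove acetyl groups from lysines of histones and other proteins. Class I enzymes are mostly nuclear: HDAC1 and HDAC2 sit in the NuRD, SIN3, CoREST and MiDAC corepressor complexes, HDAC3 is the catalytic subunit of the NCoR complex, and HDAC8 acts outside these complexes and deacetylates cohesin. Class IIa enzymes (HDAC4, HDAC5, HDAC7 and HDAC9) have little deacetylase activity of their own, bind transcription factors of the MEF2 family, and leave the nucleus when kinases phosphorylate them. Of class IIb, HDAC6 is a cytoplasmic deacetylase of tubulin, HSP90 and cortactin that also binds ubiquitin, and HDAC10 is a polyamine deacetylase.

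The deposited values are 4 tables of comparisons, so no value per sample exists here, and the depth of each library is unknown. Each fold change is a log2 ratio of Mof-depleted to control cells, given with its standard error (SE) from the authors' deposited table. Called means an adjusted p below 0.05 from DESeq2 as run by the authors. Kat8 was at -1.96 ± 0.20 and -1.71 ± 0.16 in MEFs (vehicle, then Adriamycin) and at -1.49 ± 0.15 and -1.24 ± 0.14 in podocytes per the authors' deposited table, and the direction of every fold change was read from these signs. Summed over all genes, the mean normalized count was 2.11e+07 in either MEF table. In MEFs all 10 fibroblast markers were detected, with Col1a1 at a mean normalized count of 180211 (vehicle) and 116732 (Adriamycin) per the authors' deposited table, while the slit diaphragm gene Nphs1 was at 0 and 0.505. The podocyte tables listed called genes only, and Nphs1 and Wt1 were not among them, so their level in podocytes was not checked. All samples are bulk RNA, in which fewer cells of a type and less RNA per cell cannot be told apart.

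All 10 genes are protein coding (GENCODE M21, GRCm38). The class I genes are Hdac1 (ENSMUSG00000028800, chr4:129516104-129542713), Hdac2 (ENSMUSG00000019777, chr10:36974544-37001889), Hdac3 (ENSMUSG00000024454, chr18:37935844-37955016) and Hdac8 (ENSMUSG00000067567, chrX:102284639-102505359). The class IIa genes are Hdac4 (ENSMUSG00000026313, chr1:91928779-92195699), Hdac5 (ENSMUSG00000008855, chr11:102194432-102230166), Hdac7 (ENSMUSG00000022475, chr15:97792664-97844502) and Hdac9 (ENSMUSG00000004698, chr12:34047580-34917095). The class IIb genes are Hdac6 (ENSMUSG00000031161, chrX:7930120-7947889) and Hdac10 (ENSMUSG00000062906, chr15:89123307-89128700). Hdac2 lies on the plus strand and the other 9 on the minus strand. The processed pseudogene Gm10093 on chromosome 17 matches Hdac1 transcripts at 99.4% identity over 1444 bases, so reads of Hdac1 and Gm10093 could be split by the counting, and Hdac1 values are uncertain to that extent. Gm10093 had a mean normalized count of 128 with vehicle and 121 with Adriamycin in MEFs per the authors' deposited table, against 1844 and 1606 for Hdac1. Slc48a1 overlaps Hdac7 on the opposite strand by 29 exonic bases, and the lincRNA Gm26720, at a mean normalized count of 0 and 1.47 per the authors' deposited table of each MEF comparison, overlaps Hdac4 by 3536. The labels do not say whether reads were counted by strand, so reads of overlapping genes cannot be told apart.

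To compare levels between genes, the mean normalized count over both groups of a table was divided by the exon length in kb. In MEFs with vehicle, Hdac2 was highest at 666 per kb, followed by Hdac7 (550), Hdac1 (535) and Hdac3 (386), as computed from the authors' deposited table. Hdac5 (151 per kb), Hdac6 (103), Hdac10 (83.3), Hdac4 (48.7) and Hdac8 (23.2) were lower, and Hdac9 was lowest at 3.90. The 4 class I genes made up 63.2% of the summed level per kb of the family. With Adriamycin the order in MEFs was the same but for Hdac1 (466 per kb), which stood above Hdac7 (403), and Hdac9 was again lowest (4.73). Among the 8 genes listed for podocytes given Adriamycin, Hdac1 (651 per kb), Hdac2 (547) and Hdac3 (466) led, next came Hdac10 (453), and Hdac8 was lowest (17.2). Without values per sample, no spread can be set on these levels, and whether neighbours in the order differ was not tested; Hdac7 and Hdac1 in MEFs with vehicle lie within a few percent of each other. Each table was normalized separately, so levels are not compared between tables.

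**Figure D1:**
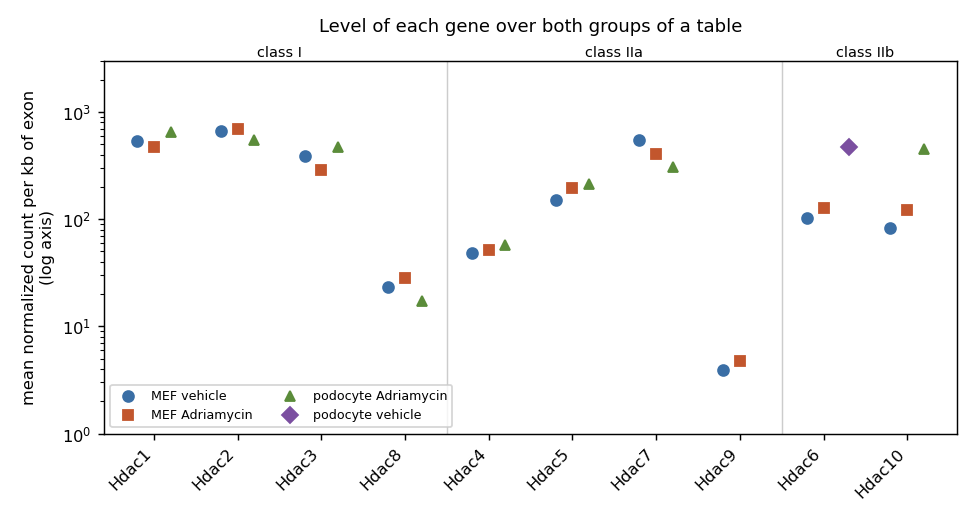
Mean normalized count per kb of exon (log axis) of each deacetylase gene over both groups of a table, by class; symbols stand for the 4 tables, and podocyte tables show listed genes only. Hdac2, Hdac1, Hdac7 and Hdac3 lie above 200 per kb where listed, and Hdac8 and Hdac9 below 30.

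Promoter windows were matched by symbol for 7 of the 10 genes (RefSeq, GRCm38.p6), and not for Hdac1, Hdac3 and Hdac10. The windows shown are the 250 bases before the start of Hdac5, the member with the largest fold change in any table, and of the class I genes Hdac2 and Hdac8, which moved the other way in the same podocyte comparison. Capitals mark matches, on either strand, to GGGCGG (the GC box) and CCAAT (the CCAAT box), and to TATAAA. The E-box, CACGTG, was also searched and has no match in these 3 windows.
Hdac5: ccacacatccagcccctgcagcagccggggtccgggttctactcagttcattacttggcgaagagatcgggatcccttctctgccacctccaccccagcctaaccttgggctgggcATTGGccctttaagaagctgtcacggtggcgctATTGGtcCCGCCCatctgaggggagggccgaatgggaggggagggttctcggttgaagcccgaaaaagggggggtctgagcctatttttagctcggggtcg
Hdac2: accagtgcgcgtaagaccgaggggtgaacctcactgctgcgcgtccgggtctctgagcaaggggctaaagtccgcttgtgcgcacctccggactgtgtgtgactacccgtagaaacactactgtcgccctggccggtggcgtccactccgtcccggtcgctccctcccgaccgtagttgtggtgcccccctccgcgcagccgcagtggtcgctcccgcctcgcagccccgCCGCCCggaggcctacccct
Hdac8: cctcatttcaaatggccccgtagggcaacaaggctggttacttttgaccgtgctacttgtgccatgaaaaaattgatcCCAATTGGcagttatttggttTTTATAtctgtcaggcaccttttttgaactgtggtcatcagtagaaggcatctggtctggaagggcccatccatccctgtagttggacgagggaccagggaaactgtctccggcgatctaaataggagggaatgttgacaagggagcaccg
The windows are chr11:102230173-102230422 for Hdac5 and chrX:102505159-102505408 for Hdac8, both on the minus strand, and chr10:36974294-36974543 on the plus strand for Hdac2. The RefSeq start used for Hdac8 lies inside the GENCODE gene, which reaches chrX:102505359. Most of the Hdac8 window, with all its marked matches, therefore lies within the gene as annotated by GENCODE. The Hdac5 window holds 1 GC box and 2 CCAAT boxes, that of Hdac2 holds 1 GC box, and that of Hdac8 holds 2 CCAAT boxes that overlap each other and 1 TATAAA. Of 32851 mouse promoter windows of this length, 32.7% hold GGGCGG, 33.8% CCAAT, 12.4% TATAAA and 6.02% CACGTG. CG dinucleotides numbered 27 in the Hdac2 window, 12 in that of Hdac5 and 6 in that of Hdac8, against a median of 6 over all windows.

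The comparison of knockout with wild-type MEFs under vehicle asks what loss of MOF did to the family in fibroblasts without drug. Hdac1, Hdac3 and Hdac10 fell and Hdac5 rose, all by less than 1.5-fold, so that 3 members fell and 1 rose of 10 tested. Over all 15605 tested genes, 19.6% fell and 17.8% rose (37.5% in all), so the members' share is near that of the background. Hdac1, the nuclear deacetylase shared by most corepressor complexes, had the smallest adjusted p of the family. Its mean normalized count over the 6 samples was 1844 and its log2 fold change -0.51 ± 0.08 (SE) per the authors' deposited table, with an adjusted p of 2.44e-10. Those values imply group levels of 2166 in wild type and 1521 in knockout, if both groups weigh the same in the mean and the fold change is the ratio of their means. Hdac2, the close paralog of Hdac1, was at -0.04 ± 0.07 (adjusted p 0.700) per the authors' deposited table. The 95% intervals of the pair do not overlap: -0.66 to -0.36 for Hdac1 and -0.17 to 0.09 for Hdac2, though the difference between the 2 genes was not tested.

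Hdac10, the polyamine deacetylase, was at -0.52 ± 0.14 (mean normalized count 281, adjusted p 0.000929) per the authors' deposited table, which implies 332 in wild type and 231 in knockout MEFs. Hdac3, the NCoR enzyme, fell less, by 0.26 ± 0.08 on the log2 scale (mean normalized count 1565, adjusted p 0.00459) per the authors' deposited table. Hdac5, a class IIa repressor of MEF2 targets, was at 0.36 ± 0.10 (mean normalized count 1323, adjusted p 0.000992) per the authors' deposited table, or from an implied 1157 to 1488. These 4 genes were the only members called with vehicle, and 51.1% to 92.4% of the genes called in the same direction changed at least as much as each of them. Just outside the threshold lay Hdac8, the cohesin deacetylase, at -0.42 ± 0.20 with an adjusted p of 0.0770 per the authors' deposited table. Hdac4 (0.18 ± 0.10), Hdac7 (-0.09 ± 0.07) and Hdac6 (-0.01 ± 0.12) did not pass, with adjusted p between 0.134 and 0.967 per the authors' deposited table. For Hdac2 and Hdac7, an estimated log2 change of 0.16 and 0.17 would have reached the threshold at their SE. For Hdac9 (0.20 ± 0.40, mean normalized count 57.2 per the authors' deposited table) it would have taken an estimate of 0.94, so sizeable changes could have been missed.

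In the same MEF comparison, leukocyte markers moved too: 6 of 10 rose and none fell, where 17.8% of all tested genes rose and 19.6% fell. Lyz2 was among those that rose, at 1.29 ± 0.36 per the authors' deposited table. The 10 markers had a summed mean normalized count of 3535, against 437486 for the fibroblast markers. The defining marker Ptprc had a mean normalized count of 58.1 per the authors' deposited table, and no marker of the list was at 0. With Adriamycin the summed count was 5314. By DESeq2 as the authors ran it, 0 of the 10 were called (0 at an unadjusted p below 0.05 as well), against 32.7% of all tested genes. Their part in the values of the deacetylases was not tested.

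With Adriamycin, Hdac1 and Hdac8 fell in knockout MEFs and no member rose, so that 2 of 10 were called against 32.7% of all 14139 tested genes (16.1% lower). Hdac1 was at -0.46 ± 0.09 (mean normalized count 1606, adjusted p 5.58e-06) per the authors' deposited table, or from an implied 1859 in wild type to 1353 in knockout. Hdac8 was at -0.66 ± 0.19 (mean normalized count 137, adjusted p 0.00345) per the authors' deposited table, or from an implied 168 to 106, and was the only member called in MEFs that changed by more than 1.5-fold. Gm10093, the Hdac1 pseudogene copy, was at -0.74 ± 0.24 (adjusted p 0.00846) with Adriamycin and -0.26 ± 0.19 (adjusted p 0.292) with vehicle per the authors' deposited table. Hdac3 and Hdac10 lay just outside the threshold with Adriamycin, at -0.23 ± 0.10 (adjusted p 0.0530) and -0.30 ± 0.13 (adjusted p 0.0571) per the authors' deposited table. Hdac5 was at 0.23 ± 0.16 (adjusted p 0.265) per the authors' deposited table, and the remaining 5 members had adjusted p between 0.302 and 0.710. Hdac9, the least abundant member, was at -0.39 ± 0.28 (mean normalized count 69.4) per the authors' deposited table.

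**Figure D2:**
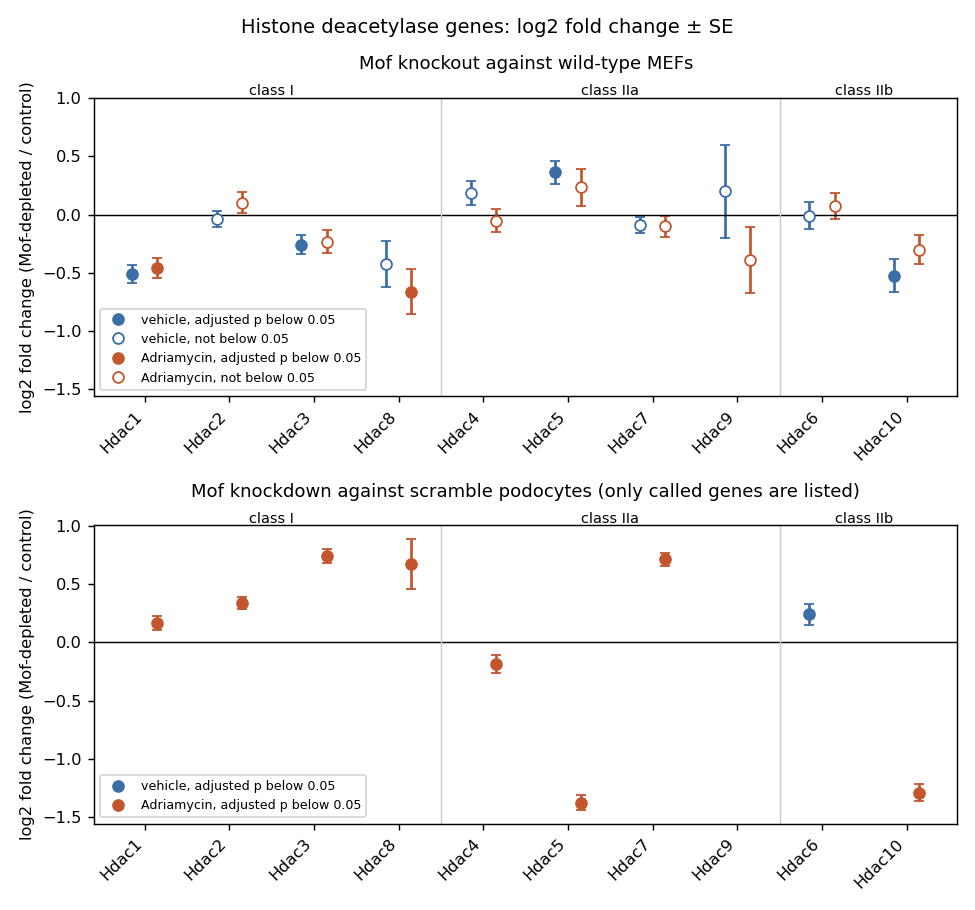
Log2 fold change (Mof-depleted over control) with its SE for each deacetylase gene, by class, in MEFs (top) and podocytes (bottom); colours give the drug condition, filled points an adjusted p below 0.05, and podocyte genes without a point were not listed. In MEFs all points lie between -0.66 and 0.36; in podocytes given Adriamycin the class I genes lie between 0.17 and 0.74 and Hdac5 and Hdac10 at -1.38 and -1.29.

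Whether the drug altered the effect of Mof loss on these genes in MEFs was asked from the difference of the fold changes, Adriamycin less vehicle, since the pair of tables share no samples. For no member was a difference found: 0 of 10 passed in the z test adjusted over 13973 genes, and 0 had an unadjusted p below 0.05. Of all genes 7.09% were called (3.49% higher and 3.61% lower). The smallest p was that of Hdac4 (difference -0.24 ± 0.14, 95% interval -0.51 to 0.03, p 0.0865, adjusted p 0.336), which was at 0.18 with vehicle and at -0.05 with Adriamycin. For Hdac1 the difference was 0.05 ± 0.12 (95% interval -0.18 to 0.28), for Hdac3 0.03 ± 0.13 (-0.22 to 0.27) and for Hdac7 -0.01 ± 0.12 (-0.24 to 0.22), all far below a 1.5-fold difference. The intervals were wider for Hdac10 (-0.15 to 0.60), Hdac8 (-0.78 to 0.30) and Hdac9 (-1.55 to 0.37), so larger differences remain possible there. That Hdac3, Hdac5 and Hdac10 were called with vehicle and not with Adriamycin, and Hdac8 the reverse, is therefore not shown to be a difference between drug conditions.

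In podocytes given vehicle, Hdac6 alone of the 10 genes was listed as changed in knockdown against scramble cells. It was at 0.24 ± 0.09 (mean normalized count 2727, adjusted p 0.0431) per the authors' deposited table, which implies 2502 in scramble and 2952 in knockdown cells. The call ended at an adjusted p threshold of 0.01. The sign turned to -0.12 when fold changes were centred on the median listed gene, but that median is of called genes only, which were mostly higher. Over all genes tested, 14.3% were called, 8.7% higher and 5.64% lower. Hdac11, the class IV deacetylase and no member of the classes described here, rose in the same table by 0.47 ± 0.10 (adjusted p 9.51e-05) per the authors' deposited table, from an implied 678 to 940. The other 9 members were not listed, which means that they were not called or not tested. Had Hdac5 been tested at the mean count it had under Adriamycin, with the median SE of the 256 listed genes within 1.25-fold of that count (0.106), a log2 change of 0.28 would have been listed. The same estimate for Hdac10, Hdac1, Hdac2, Hdac3 and Hdac7 was 0.28 to 0.29, and for Hdac8, with few reads, 0.70. These sizes are rough and may be too low, since the SEs come from called genes only, which favours small SEs. The counts were also carried over from a comparison that was normalized separately.

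The comparison of knockdown with scramble podocytes under Adriamycin held the largest changes of the family. All 4 class I genes rose, Hdac5 fell by 61.5% and Hdac10 fell by 59.1%, Hdac7 rose and Hdac4 fell slightly, so that 5 members rose and 3 fell of 10. This table called 55.7% of all 17184 tested genes (27.8% higher and 27.9% lower), and the members' count is to be read against that. Hdac6 and Hdac9 were not listed. For Hdac6 at its vehicle count, a log2 change of 0.12 would have been listed by the same rough estimate.

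Hdac5, the class IIa enzyme, was at -1.38 ± 0.06 (mean normalized count 1860, adjusted p 3.88e-101) per the authors' deposited table. Its implied level was 2686 in scramble and 1034 in knockdown podocytes, and 15.1% of the 4802 genes that fell changed at least as much. Hdac10, the polyamine deacetylase of class IIb, was at -1.29 ± 0.07 (mean normalized count 1529, adjusted p 3.36e-75) per the authors' deposited table, or from an implied 2170 to 888. Among the class I genes, Hdac3 rose most, by 0.74 ± 0.06 (mean normalized count 1889, adjusted p 2.80e-35) per the authors' deposited table, or from an implied 1414 to 2364. Hdac8 was at 0.67 ± 0.21 per the authors' deposited table, with a mean normalized count of only 83.2 and an adjusted p of 0.00383. Hdac2 rose by 0.34 ± 0.05 (mean normalized count 2448, adjusted p 1.41e-10) per the authors' deposited table, and Hdac1 by 0.17 ± 0.06 (mean normalized count 2244, adjusted p 0.01004).

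Class IIa members moved in opposite directions in these podocytes. Hdac7, which like Hdac5 represses MEF2 targets, rose by 0.71 ± 0.05 (mean normalized count 2092, adjusted p 3.13e-37) per the authors' deposited table, or from an implied 1586 to 2597. Slc48a1, which overlaps the Hdac7 locus, went the other way, at -0.44 ± 0.04 per the authors' deposited table. Hdac4 was at -0.18 ± 0.08 (adjusted p 0.0322) per the authors' deposited table, and its call ended at a threshold of 0.01 and when fold changes were centred on the median listed gene. The rises of the 4 class I genes and of Hdac7 and the falls of Hdac5 and Hdac10 kept their direction and call under that centring. The median used is of called genes only, so the centring is no check of the normalization. At a threshold of 0.01 only Hdac1 of these 7 genes lost its call.

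Podocyte markers were among the genes that changed in this comparison: 5 of 10 rose and 1 fell, where 27.8% of all tested genes rose and 27.9% fell. Synpo was among those that rose, at 1.10 ± 0.18 per the authors' deposited table. Of 10 leukocyte markers 3 were listed, Csf1r higher (2.65 ± 0.18) and Cd68 and Cd14 lower per the authors' deposited table, and the defining marker Ptprc was not listed. Epithelial keratins Krt8 and Krt18 rose with Adriamycin and fell with vehicle per the authors' deposited table of each podocyte comparison. Their part in the values of the deacetylases was not tested.

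The fold changes under Adriamycin were also set side by side between podocytes and MEFs. The fold change in podocytes less that in MEFs passed the z test for 7 of the 8 members in both tables, 5 higher and 2 lower. Members entered this comparison only if called in podocytes, which selects for a fold change away from 0 there. The p-values of this test are therefore given as a description. Of the 8842 genes in both tables, 79.3% passed (40.5% higher and 38.8% lower); the podocyte table lists called genes only, which raises this share, so the members' count stands near the background. The difference was 1.33 ± 0.29 for Hdac8, 0.97 ± 0.11 for Hdac3 and 0.63 ± 0.11 for Hdac1, with adjusted p of 8.49e-06, 1.04e-16 and 1.81e-08. These 3 class I genes were above 0 in podocytes and below 0 in MEFs. Hdac7 differed by 0.81 ± 0.11 (adjusted p 1.28e-13) and Hdac2 by 0.24 ± 0.11 (adjusted p 0.0331). Hdac5 differed by -1.61 ± 0.17 (adjusted p 4.87e-20) and Hdac10, lower in podocytes and at -0.30 in MEFs, by -0.99 ± 0.15 (adjusted p 5.13e-11). Hdac4 did not differ by this test (-0.13 ± 0.12, 95% interval -0.38 to 0.11, adjusted p 0.321). Cell type, dose and the kind of depletion (knockout or knockdown) all differ between these tables and cannot be told apart.

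**Figure D3:**
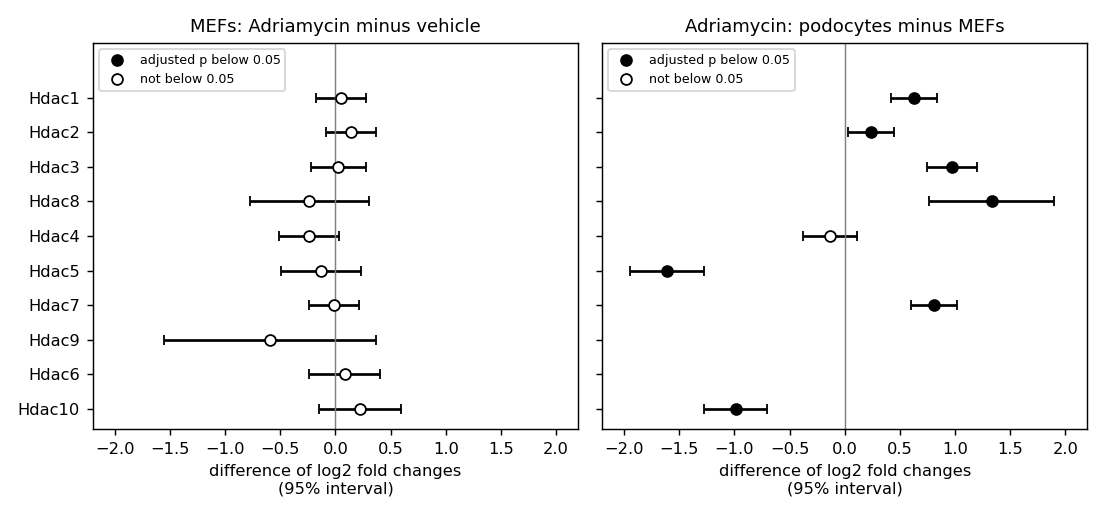
Difference of log2 fold changes with its 95% interval for each deacetylase gene: Adriamycin less vehicle in MEFs (left) and podocytes less MEFs under Adriamycin (right); filled points have an adjusted p below 0.05. All 10 intervals on the left include 0, while on the right 7 of 8 do not, with Hdac5 at -1.61 and Hdac8 at 1.33. The right panel holds only genes called in podocytes.

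The partners through which the deacetylases reach chromatin were described from lists of complex subunits and associated proteins, 88 genes in 9 lists. In MEFs, 17 were higher and 14 lower of 86 tested with vehicle, and 26 higher and 11 lower of 87 with Adriamycin. Over all tested genes, 17.8% were higher and 19.6% lower with vehicle, and 16.6% and 16.1% with Adriamycin. In podocytes 10 were listed as higher and 1 as lower with vehicle, and 35 as higher and 33 as lower with Adriamycin. The podocyte tables called 14.3% of all tested genes with vehicle and 55.7% with Adriamycin, and the counts of each list below are to be read against these shares.

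NuRD joins HDAC1 and HDAC2 to the CHD remodelling ATPases. With vehicle, 4 of its 12 listed genes fell in MEFs and none rose (37.5% of all genes were called), with a median log2 fold change of -0.11 against 0.01 over all tested genes: Mta3 (-0.33 ± 0.11), Chd3 (-0.25 ± 0.09), Chd4 (-0.21 ± 0.08) and Mta1 (-0.19 ± 0.07), all per the authors' deposited table. With Adriamycin 2 rose and 1 fell in MEFs, where 32.7% of all genes were called (median 0.07 against -0.02), Gatad2a (0.25 ± 0.08) and Mbd3 (0.26 ± 0.08) against Mta3 (-0.40 ± 0.12) per the authors' deposited table. In podocytes given Adriamycin all 12 were listed, 9 higher and 3 lower, in a table that called 55.7% of all genes. The histone chaperones Rbbp7 (0.64 ± 0.05) and Rbbp4 (0.41 ± 0.05), also subunits of SIN3, rose there, and Cdk2ap1 (-0.53 ± 0.08) and Gatad2a (-0.38 ± 0.05) fell, per the authors' deposited table. In podocytes with vehicle, Chd3 (0.47 ± 0.16) and Rbbp4 (0.28 ± 0.10) rose per the authors' deposited table.

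SIN3 is a scaffold for HDAC1 and HDAC2. Of its 15 listed genes, 1 rose and 2 fell in MEFs with vehicle, 3 rose and 3 fell with Adriamycin, and 4 rose and 9 fell in podocytes given Adriamycin. The shares of all genes called in these tables were 37.5%, 32.7% and 55.7%, so 3 of 15 with vehicle lies below the share over all genes. In those podocytes the scaffold Sin3a rose (0.55 ± 0.07) and its paralog Sin3b fell (-0.23 ± 0.06) per the authors' deposited table, and the paralogs Brms1l (1.02 ± 0.08) and Brms1 (-0.58 ± 0.06) split in the same way. Sap30l (-1.15 ± 0.09) and Sap18 (-0.70 ± 0.07) were lower there too per the authors' deposited table. In MEFs Ogt, the O-GlcNAc transferase, rose with vehicle (0.44 ± 0.10), and Suds3 (-0.36 ± 0.09) and Sap130 (-0.31 ± 0.08) fell, per the authors' deposited table. Sap30 rose in MEFs with Adriamycin (0.71 ± 0.15) and fell in podocytes with Adriamycin (-0.75 ± 0.09) per the authors' deposited table of each comparison; that difference was not tested.

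CoREST joins HDAC1 and HDAC2 to the demethylase KDM1A. Its gene Zmym3 fell in MEFs with vehicle (-0.48 ± 0.11) and Adriamycin (-0.90 ± 0.15) and rose in podocytes with Adriamycin (1.59 ± 0.12) per the authors' deposited table of each comparison. Of 9 genes, 2 rose and 4 fell in those podocytes (55.7% of all genes called), Rcor3 most (-1.35 ± 0.07) and Hmg20b next (-0.83 ± 0.06) per the authors' deposited table. In MEFs 2 rose and 1 fell with vehicle, and 2 fell with Adriamycin, against 37.5% and 32.7% of all genes called.

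Around HDAC3, the adaptor Tbl1xr1 rose in MEFs with vehicle (0.46 ± 0.11) and Adriamycin (0.68 ± 0.21) and in podocytes with Adriamycin (1.46 ± 0.12) per the authors' deposited table of each comparison. The corepressor Ncor1 rose (0.63 ± 0.06) in the same podocytes per the authors' deposited table. In MEFs given Adriamycin Ncor1 fell (-0.23 ± 0.09) per the authors' deposited table. Gps2, the inhibitor subunit, fell in MEFs with vehicle (-0.52 ± 0.13) and rose in podocytes with Adriamycin (0.51 ± 0.07) per the authors' deposited table of each comparison. Of the MiDAC genes, the transcription factor Trerf1 rose in MEFs with vehicle (0.41 ± 0.16) and Adriamycin (0.44 ± 0.15) and fell in podocytes with Adriamycin (-0.67 ± 0.06) per the authors' deposited table of each comparison.

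Class IIa deacetylases act through MEF2, RUNX and SRF factors and are moved out of the nucleus by protein kinases and the phosphoserine adaptors of the Ywha family. Srf fell in MEFs with vehicle (-0.36 ± 0.10) and Adriamycin (-0.26 ± 0.10) and in podocytes with Adriamycin (-0.29 ± 0.06) per the authors' deposited table of each comparison. Mef2d rose in MEFs with vehicle (0.27 ± 0.08), Mef2c fell in MEFs with Adriamycin (-0.76 ± 0.26), and in podocytes given Adriamycin Mef2d fell (-0.36 ± 0.05) and Runx1 rose (0.88 ± 0.08), per the authors' deposited table of each comparison. Of 16 kinase and adaptor genes, 3 rose and none fell in MEFs with vehicle, and 6 rose and 1 fell with Adriamycin, where 17.8% and 16.6% of all genes rose; Ywhag rose in both, by 0.36 ± 0.06 and 0.32 ± 0.08 per the authors' deposited table of each comparison. In podocytes 6 were higher and none lower with vehicle (8.7% of all genes higher), among them the kinases Prkd1 (0.68 ± 0.20), Camk2d (0.47 ± 0.10) and Sik3 (0.42 ± 0.10) per the authors' deposited table. With Adriamycin (27.8% of all genes higher and 27.9% lower) 8 were higher, led by Ywhah (1.15 ± 0.05) and the kinase Prkd3 (1.10 ± 0.07), and 4 lower, led by Sfn (-1.06 ± 0.11), per the authors' deposited table.

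**Figure D4:**
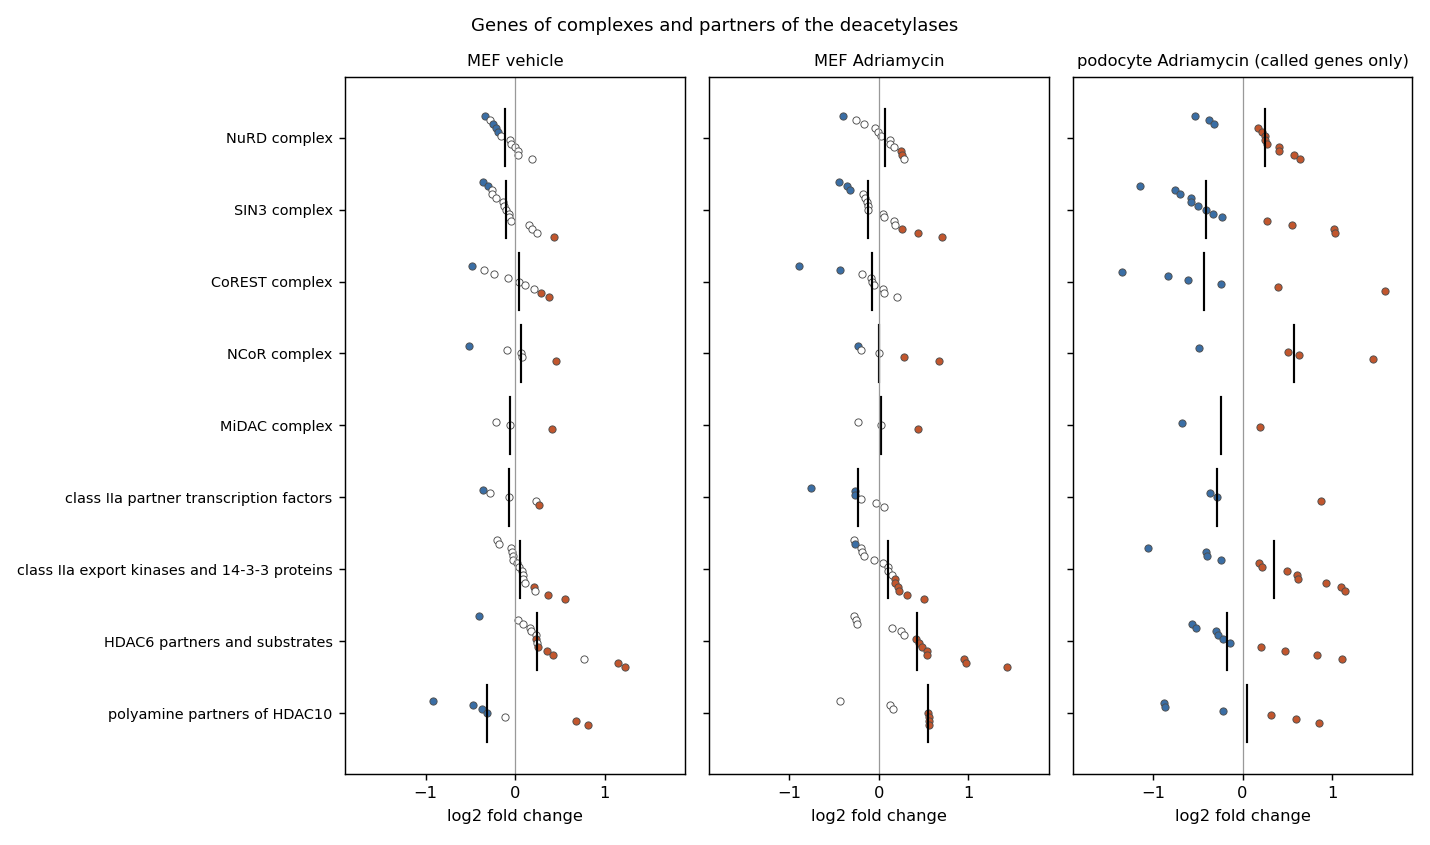
Log2 fold change of each tested gene of the 9 partner lists in both MEF tables and in podocytes given Adriamycin (called genes only); red and blue points are called higher and lower, white points were not called, and black lines are list medians. In MEFs most NuRD and SIN3 points lie within 0.5 of 0, while in podocytes Zmym3 reaches 1.59 and Rcor3 -1.35.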

How the data were processed

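Poly(A) RNA of 24 samples was sequenced, per the labels' protocols. The submitters' processing notes name GRCm38 and, as the authors' tools, DESeq2 1.4.1, featureCounts 1.4.5-p1 and TopHat2 2.0.13. The signal deposited by the authors is the mean count over a table's samples after division by size factors. The log2 fold change and its SE, the Wald score, the p-value and the Benjamini-Hochberg adjusted p-value were made by the authors with DESeq2, per the file headers. The Wald score equals the fold change over its SE to within 1.42e-13. This DESeq2 version can shrink fold changes towards 0, and whether the authors' values are shrunken is not stated in the labels.

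The podocyte tables hold only genes with an adjusted p below 0.05; the number tested was recovered from the ratio of adjusted p to p. Members were matched by symbol. Exon lengths come from GENCODE M21, and copies were sought with minimap2 2.31 (at least 90% identity over 200 bases). The difference of fold changes was divided by the root of the summed squared SEs, with a two-sided normal p and Benjamini-Hochberg adjustment (Python 3.11.15, SciPy 1.17.1), and was tested on simulated data; that between cell types was added after the tables were seen. Members and lists were chosen with earlier results of these data known. Named genes were the 10 members, Kat8, Hdac11 and, of each list, up to 2 higher and 2 lower genes with the smallest adjusted p per table; some genes under this rule are left out of the text, and a few others were chosen after their values were seen. Depth per library is unknown, and the SE of each gene gives its precision. Alternatives were the threshold, a 1.5-fold minimum, the filter on low counts and centring on the median gene. Some genes of the lists are not reported here.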

Additional observations from a re-analysis of the deposited data

Results flagged for a closer look

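Under Adriamycin, the fold changes of 7 members passed the test of the difference between podocytes and MEFs. Podocytes less MEFs, the difference was 0.63 for Hdac1, 0.24 for Hdac2, 0.97 for Hdac3, 1.33 for Hdac8 and 0.81 for Hdac7. It was -1.61 for Hdac5 and -0.99 for Hdac10. The share of all genes that differed in this way was 79.3%, and the podocyte table holds called genes only. Members thus entered the test by being called in podocytes, which favours a difference. The kind of depletion, the dose and the cell type cannot be told apart here.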

How the results depend on the processing

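No paired analysis was possible because the tables hold no value per sample, and for the same reason no sample could be left out. With a minimum change of 1.5-fold, the number of members called went from 4 to 0 in MEFs with vehicle, from 2 to 1 in MEFs with Adriamycin, from 1 to 0 in podocytes with vehicle and from 8 to 5 in podocytes with Adriamycin; this setting leaves fold changes as they are and removes small ones. At an adjusted p below 0.01 the count in podocytes with vehicle was 0. Centring podocyte fold changes on the median listed gene, a choice made after seeing the data, shifts them by the median of called genes (0.35 with vehicle and -0.12 with Adriamycin). It turned Hdac6 in podocytes with vehicle to -0.12, so that 0 members were called there; the cause lies in the construction, since the listed genes were mostly higher. The filter on low counts and centring in MEFs changed no call of a member, and the difference between drug conditions stayed at 0 members under all 4 alternatives. In MEFs the SE limits what can be seen, most for Hdac9 and Hdac8, and in podocytes the tables' threshold does.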

Other observations

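Of 14 genes of cytoplasmic partners and substrates of HDAC6, 6 rose and 1 fell in MEFs with vehicle, and 8 rose and none fell with Adriamycin, with medians of 0.24 and 0.43 against 0.01 and -0.02 over all tested genes. Of all tested genes 17.8% rose and 19.6% fell with vehicle, and 16.6% rose and 16.1% fell with Adriamycin. Sqstm1, the autophagy receptor for ubiquitinated cargo, rose by 1.23 ± 0.10 and 0.95 ± 0.08, and the tubulin gene Tuba4a by 1.15 ± 0.15 and 1.43 ± 0.22, with vehicle and Adriamycin per the authors' deposited table of each comparison. Tuba1b fell with vehicle (-0.41 ± 0.08) and rose with Adriamycin (0.41 ± 0.09) per the authors' deposited table of each comparison. The chaperone gene Hsp90aa1 rose in MEFs with vehicle (0.24 ± 0.06) and Adriamycin (0.53 ± 0.08) and in podocytes given Adriamycin (0.47 ± 0.04) per the authors' deposited table of each comparison. In podocytes given Adriamycin, where 55.7% of all genes were called, 4 of the 14 were higher, led by Tuba1a (1.11 ± 0.05), and 6 lower, among them Tuba1c (-0.52 ± 0.05), per the authors' deposited table. Hdac6 itself was not called in either MEF table.

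Enzymes of polyamine metabolism, the pathway of HDAC10, split in MEFs with vehicle: 2 rose and 4 fell of 7, where 37.5% of all genes were called. Sat1, which acetylates spermidine and spermine, rose by 0.81 ± 0.09 and the spermine oxidase Smox by 0.68 ± 0.15, while spermine synthase Sms fell by 0.47 ± 0.11 and Amd1 by 0.37 ± 0.10 on the log2 scale per the authors' deposited table. With Adriamycin 4 rose and none fell in MEFs (32.7% of all genes called), among them Smox (0.56 ± 0.11) and spermidine synthase Srm (0.55 ± 0.11) per the authors' deposited table. In podocytes given Adriamycin Sat1 (-0.86 ± 0.06) and Smox (-0.88 ± 0.08) fell and Srm (0.60 ± 0.09) and Sms (0.32 ± 0.11) rose per the authors' deposited table, where Hdac10 was at -1.29.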
